A study of Homo sapiens with 2 samples.

Results

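FLAG-tagged mouse wt-Cdx1 or wt-Cdx2 was mapped by ChIP-seq in DLD1-TetOff cells, and this section describes the sites at which both factors gave a strong peak at nearly the same position. A strong FLAG-wt-Cdx1 peak was defined by a pileup of 15 to 29 and a strong FLAG-wt-Cdx2 peak by a pileup of 13 to 29. Pileup is the number of sequenced tags, extended to the estimated fragment length, that cover the peak summit. These extended tags are called fragments here. A strongly bound shared site was an autosomal pair of such peaks with summits at most 100 bp apart, each Cdx1 summit being matched to the nearest strong Cdx2 summit. A block of chromosome 8 was left out by this rule. In total, 4842 shared sites were found, and every site used a different Cdx1 peak and a different Cdx2 peak. They were drawn from lists of 196910 peaks (FLAG-wt-Cdx1) and 218718 peaks (FLAG-wt-Cdx2), of which 17706 and 20841 were strong peaks in the regions considered. Thus, 27.3% of the strong Cdx1 peaks (95% Wilson interval, 26.7 to 28.0) and 23.2% of the strong Cdx2 peaks (22.7 to 23.8) belonged to a shared site. Because pileup and summit distance chose the sites, these values describe the sites and were not tested.

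DLD1 is a human colorectal cancer line, and its TetOff derivative holds a transactivator that doxycycline (DOX) switches off, so that withdrawing DOX starts the expression of the tagged protein. Cells of both groups were kept in DOX (0.5 µg/mL), released from it for 20 h, pooled from 10 dishes, fixed for 5 min with 1% formaldehyde and digested with MNase for 50 min before precipitation with anti-FLAG beads. The groups were labelled by the tagged protein, FLAG-wt-Cdx1 or FLAG-wt-Cdx2, each expressed in its own TetOff clone, so that factor and clone cannot be told apart, and there was 1 library per group with 16452141 and 13781541 kept tags, respectively. The sample descriptions speak of cells that do not express the protein in the presence of DOX, whereas the protocols state that DOX was withdrawn; the libraries were treated here as induced. With 1 library per factor and without an input library or a library of cells lacking the tagged protein, no difference between the factors could be tested, and all intervals cover counting error only.

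CDX1 and CDX2 are homeobox transcription factors related to Drosophila caudal that determine the identity of intestinal epithelial cells. Their homeodomains are closely related and recognize AT-rich DNA, and the factors share many target genes. In MNase-based ChIP-seq, the DNA left undigested around a bound factor is sequenced, so that the summit marks the position covered by most fragments.

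The LGR5 gene, which encodes an R-spondin receptor marking intestinal stem cells, held 1 of these sites. The site lies on chromosome 12 and was assigned to LGR5 by the genome window that the study draws for this gene. The study reports a peak of Cdx1 and Cdx2 downstream of the LGR5 TSS. The FLAG-wt-Cdx1 peak at chr12:71834506-71834727 (GRCh37, per the submitters' processing notes) had its summit at 71834615, with 19 fragments (95% exact Poisson interval, 11.4 to 29.7) and a fold enrichment of 9.83 over the local background. The FLAG-wt-Cdx2 peak at chr12:71834491-71834745 had its summit at 71834625, with 20 fragments (12.2 to 30.9) and a fold enrichment of 10.4. The entire Cdx1 peak of 222 bp lay inside the Cdx2 peak. Among the shared sites, LGR5 was not extreme by pileup, since 56.5% of the sites had a lower Cdx1 pileup and 72.9% a lower Cdx2 pileup. It stood higher by fold enrichment, above 73.7% of the sites for Cdx1 and 84.2% for Cdx2. Its summits, 10 bp apart, were closer than those of most shared sites, as 26.5% of the sites had a smaller distance.

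An amplicon used for ChIP-qPCR in the same stretch of LGR5 is named +1004 to +1163 by its distance from the TSS. Overlapping primers from the primer lists give the DNA sequence around both of its ends. These stretches are shown as the only sequence near a shared site that was available here, in the direction of LGR5 transcription, with the amplicon's primer sites in capitals (the reverse primer as its complement). They mark the ends of the region assayed and not the summit itself, whose distance from the TSS was not recomputed here.
Start of the amplicon, from the primer named +998 on: ttagtctGCATCCCTTGCACTGTGACgtga
End of the amplicon, from the primer named +1136 on: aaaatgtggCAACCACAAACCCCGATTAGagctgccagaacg

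The sites crowded near the lower limits of pileup. The FLAG-wt-Cdx1 pileup had a median of 18 fragments, with 16 and 21 as quartiles, and the FLAG-wt-Cdx2 pileup a median of 16, with 14 and 20. The median fold enrichment was 8.73 for Cdx1 and 8.26 for Cdx2, and the median −log10 q was 12.4 and 11.1, respectively. At 826 sites the Cdx1 pileup was 15, the lowest allowed, and at 736 sites the Cdx2 pileup was 13. Just below these limits, 998 pairs had a Cdx1 pileup of 14 and 797 pairs had a Cdx2 pileup of 12, so that the limits cut through a continuous distribution. At the upper end, 44 sites had a Cdx1 pileup of 29 against 35 pairs at 30, and 54 sites had a Cdx2 pileup of 29 against 47 pairs at 30. Within these limits, the pileups of the libraries were weakly related across sites (Spearman's rho = 0.21, n = 4842 sites). Across all 56111 pairs of summits within 100 bp on the same autosomal regions, whatever their pileup, rho was 0.39. Sites are not independent replicates, and the points share the libraries and the background around each site.

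**Figure D1:**
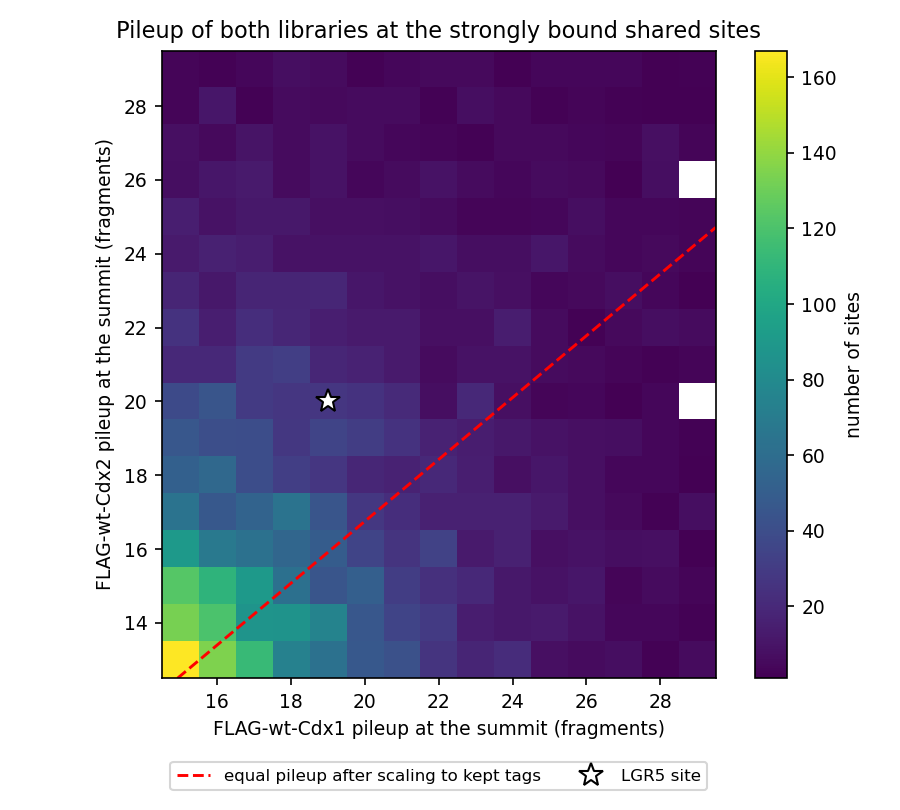
Number of strongly bound shared sites for each combination of FLAG-wt-Cdx1 pileup (x axis, fragments) and FLAG-wt-Cdx2 pileup (y axis, fragments), with the color giving the number of sites and white cells holding none. The 4842 sites gather at the lower left corner, and the LGR5 site (star) lies at 19 and 20 fragments, above the dashed line of equal pileup after scaling to kept tags.

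Most strong peaks of either factor had some peak of the other factor at the same position, but often a weaker one. Of the strong Cdx1 peaks, 10645 (60.1%; 59.4 to 60.8) had a Cdx2 summit of any pileup within 100 bp, against 29.5% of all Cdx1 peaks in the same regions. Of these partners, 5458 (51.3%) had a pileup below 13 and 345 (3.24%) had a pileup above 29. Of the strong Cdx2 peaks, 12366 (59.3%; 58.7 to 60.0) had a Cdx1 summit of any pileup within 100 bp, against 26.3% of all Cdx2 peaks. No Cdx2 peak of any pileup lay within 1 kb of 4574 strong Cdx1 peaks (25.8%), and no Cdx1 peak lay within 1 kb of 5472 strong Cdx2 peaks (26.3%). These peaks without a partner serve below as a comparison.

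The share of strong Cdx1 peaks that belonged to a shared site was higher in each higher class of pileup. It was 18.9% (18.1 to 19.8) at a Cdx1 pileup of 15 to 16, 28.7% at 17 to 19, 41.1% at 20 to 24 and 53.3% (49.8 to 56.8) at 25 to 29. For strong Cdx2 peaks, the share was 14.6% (13.9 to 15.3) at a pileup of 13 to 14, 22.3% at 15 to 16, 31.5% at 17 to 20 and 46.9% (44.8 to 49.0) at 21 to 29. Pileup itself chose the sites, and these shares are given as a description.

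To compare the strength of the factors at a site, the FLAG-wt-Cdx2 pileup was multiplied by 1.19, the ratio of kept tags between the libraries, and the Cdx1 pileup was divided by it. This depth-scaled ratio had a median of 0.92 (95% interval of the median from ranks, 0.90 to 0.94), with quartiles of 0.79 and 1.08. The scaled pileup was higher with FLAG-wt-Cdx2 at 3131 sites (64.7%) and higher with FLAG-wt-Cdx1 at 1711 sites (35.3%). Over all 56111 summit pairs within 100 bp, the 55th percentile of the ratio was 0.99. The scaled pileup was thus higher with FLAG-wt-Cdx2 at most of these pairs as well, and this direction is not particular to the shared sites. The majority was larger at the shared sites. However, after scaling, the limits themselves were not equal, since a Cdx2 pileup of 13 to 29 corresponds to 15.5 to 34.6 fragments at the depth of the FLAG-wt-Cdx1 library. With nearly equal limits after scaling, 16 to 29 for Cdx1 and 13 to 24 for Cdx2, the median ratio was 0.97 at 3656 sites, a setting chosen after the data were seen. When fold enrichment replaced the scaled pileup, the median ratio was 1.05 (1.05 to 1.06). Fold enrichment comes from counts not scaled to depth, with 1 added to pileup and background, so that a ratio of 1 need not mark balance. Thus, the direction of the balance at these sites was not settled.

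At least 1.5-fold higher scaled pileup was found with FLAG-wt-Cdx1 at 83 sites (1.71%) and with FLAG-wt-Cdx2 at 547 sites (11.3%), whereas 11.0% and 16.7% of all summit pairs passed the same limits. Since the rule bounds both pileups, the ratio could only range from 0.43 to 1.87, and nothing is read from these counts about the sites. The Cdx1 share of the fragments at a site was also compared with the Cdx1 share of all kept tags, 54.4%, by the exact binomial 95% interval. This interval lay below 54.4% at 78 sites (1.61%), against 2.76% of all summit pairs. No site could lie above it under the rule, since even 29 against 13 fragments, the highest ratio allowed, gave an interval of 52.9 to 82.4%; 0.456% of all summit pairs did. At all other sites the interval included the share of kept tags.

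The choice of the sites in 1 library alone moved the balance toward that library. Among pairs chosen only by a Cdx1 pileup of 15 to 29, the median ratio was 1.22, with a median Cdx2 pileup of 12. Among pairs chosen only by a Cdx2 pileup of 13 to 29, it was 0.71, with a median Cdx1 pileup of 13. Over all summit pairs it was 0.94, close to that of the shared sites.

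**Figure D2:**
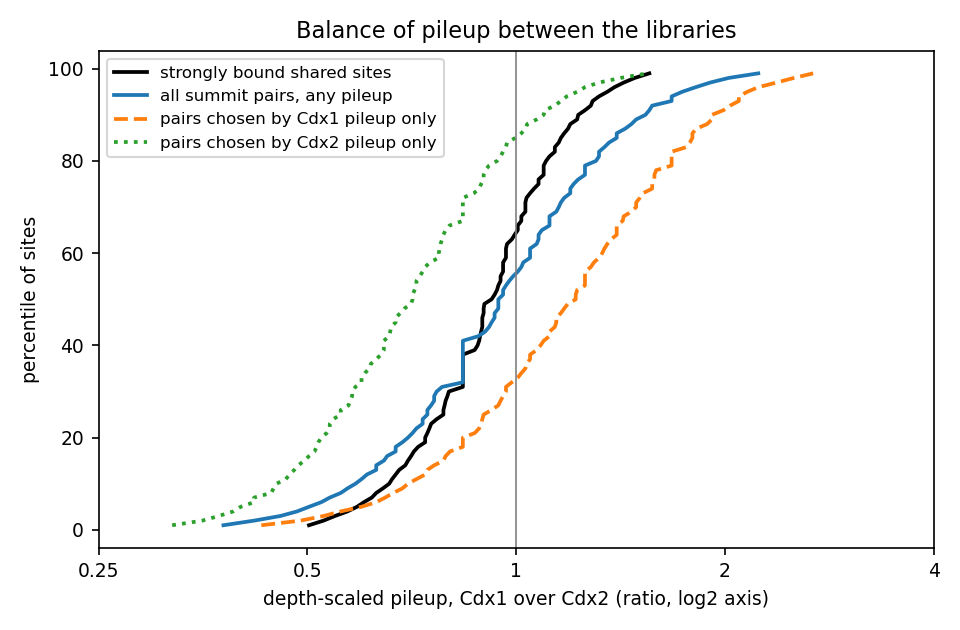
Percentiles (y axis) of the depth-scaled pileup ratio of FLAG-wt-Cdx1 to FLAG-wt-Cdx2 (x axis, log2 scale) at the strongly bound shared sites, at all summit pairs within 100 bp, and at pairs chosen by the pileup of 1 library only. The shared sites have the steepest curve and a median of 0.92, between the medians of 0.71 and 1.22 of the pairs chosen on FLAG-wt-Cdx2 or FLAG-wt-Cdx1 alone.

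The sites at both ends of the balance were those at the limits of the rule. The highest ratio, 1.87, was found at 6 sites with 29 Cdx1 fragments and 13 Cdx2 fragments. Of the 3 with the closest summits, the first lay on chromosome 9 with its Cdx1 summit at 6447737 and its Cdx2 summit 11 bp away, at fold enrichments of 13.1 and 7.38. The others lay at 48352613 on chromosome 11 and at 13507724 on chromosome 2. The Cdx1 share of the fragments there was 69.0% (exact binomial 95% interval, 52.9 to 82.4), which included the 54.4% of kept tags. The lowest ratio, 0.43, was found at 3 sites with 15 Cdx1 fragments and 29 Cdx2 fragments. Their Cdx1 summits lay at 667571 and 39856142 on chromosome 18 and at 25276973 on chromosome 12, and the Cdx2 peaks there were longer than the Cdx1 peaks, at 886 bp against 439 bp, 513 bp against 254 bp, and 410 bp against 390 bp. The Cdx1 share of the fragments at these 3 sites was 34.1% (exact binomial 95% interval, 20.5 to 49.9), below the 54.4% of kept tags, so that they belong to the 78 sites named above.

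The 5 sites with the highest sum of Cdx1 pileup and depth-scaled Cdx2 pileup had nearly equal pileups, as the limit of 29 in each library sets, and depth-scaled ratios from 0.78 to 0.87. The highest sum was found on chromosome 5, with 29 fragments in each library, summits at 148374172 and 148374182, and fold enrichments of 13.2 and 13.8. The next was on chromosome 8, outside the block left out, with 29 fragments in each library and summits at 90762886 and 90762864, at fold enrichments of 10.6 and 13.8. A site on chromosome 7 had 28 and 29 fragments, with summits at 139431813 and 139431814 and fold enrichments of 13.8 and 13.7. The remaining 2 sites of the 5, at 16861671 on chromosome 22 and 121355743 on chromosome 1, had 29 and 28 and 27 and 29 fragments but lower fold enrichments, between 7.65 and 9.37. The site on chromosome 1 was tied with 3 others at 27 and 29 fragments, and was taken for its summits 1 bp apart and then, against a site on chromosome 18, by chromosome order. The local background at these 2 sites was 2.92 and 2.34 fragments with FLAG-wt-Cdx1, against a median of 1.19 over all shared sites.

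The summits of both factors coincided closely. The median distance between them was 20 bp (19 to 21), with quartiles of 9 and 37 bp. Over all summit pairs within 100 bp, whatever their pileup, it was 26 bp, with quartiles of 12 and 47 bp, so that close summits are not particular to the shared sites. The summits lay at most 10 bp apart at 1401 sites (28.9%), at most 50 bp apart at 4176 sites (86.2%), and at the same base at 60 sites. There were 2801 sites in the class from 0 to 24 bp, 1346 from 25 to 49 bp, 496 from 50 to 74 bp and 196 from 75 to 99 bp, so that the numbers fell well before the limit of 100 bp. Beyond it, only 436 strong Cdx1 peaks had their nearest strong Cdx2 summit 101 to 200 bp away and 376 had it 201 to 400 bp away. At the limit itself, 63 sites had summits 91 to 100 bp apart and 57 pairs had summits 101 to 110 bp apart. The Cdx2 summit lay at the higher coordinate at 2384 sites and at the lower coordinate at 2398 sites, and the median signed distance was 0 bp (−1 to 1). Thus, no shift of 1 library against the other was seen. The fragment length estimated by the authors was 131 bp with FLAG-wt-Cdx1 and 136 bp with FLAG-wt-Cdx2, so that the typical distance between summits was a small part of a fragment.

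**Figure D3:**
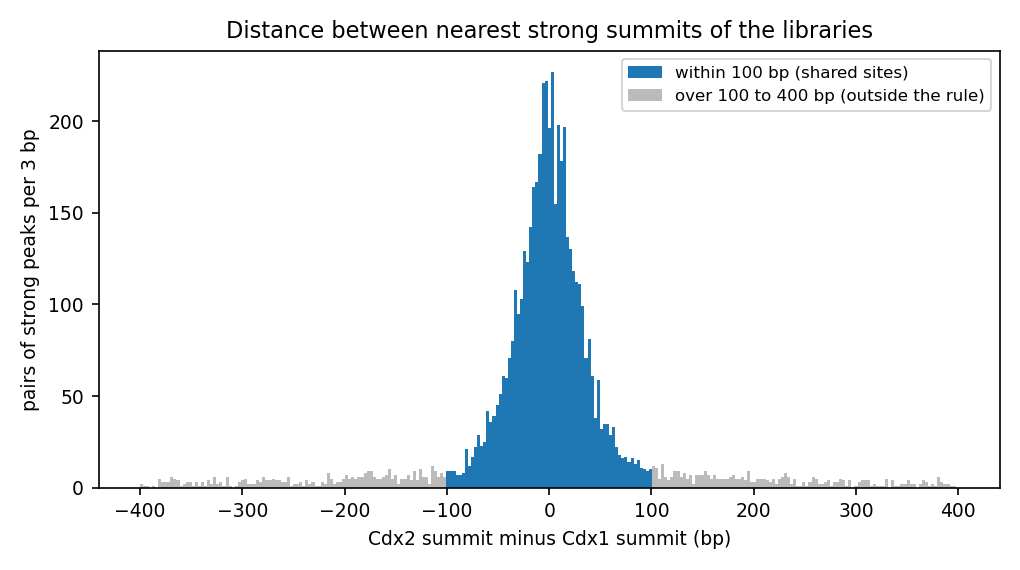
Number of strong FLAG-wt-Cdx1 peaks (y axis, per 3 bp) by the distance from their summit to the nearest strong FLAG-wt-Cdx2 summit (x axis, bp). The 4842 shared sites (blue) form a symmetrical peak around 0 bp with a median distance of 20 bp, and the pairs outside the rule (grey) form a low, flat background.

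The distance between the summits was larger at long peaks. It had a median of 17 bp at the 996 sites where both peaks were shorter than 200 bp, 19 bp at the 1069 sites with both peaks of 200 to 300 bp, and 33 bp (29 to 38) at the 420 sites with both peaks longer than 400 bp. Sites with summits more than 50 bp apart, 666 in all, had a median Cdx1 peak length of 299.5 bp, against 211 bp at the sites with summits at most 10 bp apart. Their pileups were similar, with medians of 18 and 16 fragments (Cdx1 and Cdx2) at the more distant summits and of 18 and 17 at the closer ones. Across all sites, Spearman's rho between the summit distance and the Cdx1 peak length was 0.17 (n = 4842 sites).

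The peaks of a shared site covered nearly the same DNA. They overlapped at 4841 of the 4842 sites, with a median overlap of 191 bp, and the overlap made up at least 80% of the shorter peak at 4643 sites (95.9%). At 1111 sites the Cdx1 peak lay inside the Cdx2 peak, and at 1133 sites the Cdx2 peak lay inside the Cdx1 peak. Both summits were inside both peaks at 4821 sites (99.6%). The rule held the summits at most 100 bp apart, and no peak here was shorter than 131 bp (Cdx1) or 136 bp (Cdx2). Much of this overlap therefore follows from the rule, and it was not compared with that of other pairs. The summit lay close to the middle of the peak, at a median of 48.8% of the peak length from its start for Cdx1 and 49.1% for Cdx2.

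The median peak length was 219 bp (217 to 221) with FLAG-wt-Cdx1 and 221 bp (219 to 223) with FLAG-wt-Cdx2, and the quartiles were 187 and 302 bp and 187 and 298 bp, respectively. All strong peaks, the shared sites included, had medians of 208 bp (207 to 209) for Cdx1 and 210 bp (209 to 211) for Cdx2. Strong peaks without a partner within 1 kb were shorter still, with medians of 189 bp (188 to 191) for Cdx1 and 195 bp (194 to 196) for Cdx2. Because length also rose with pileup, peaks of equal pileup were compared. At each of the 11 Cdx1 pileups from 15 to 25, where at least 20 peaks without a partner were present, the median of the shared sites was the longer, by 18 to 50.5 bp. The same was seen at each of the 12 Cdx2 pileups from 13 to 24, by 10.5 to 60 bp. For instance, at a Cdx1 pileup of 20 the medians were 226 bp at 358 shared sites and 196.5 bp at 200 peaks without a partner. The peaks belong to 1 library each, and these differences were not tested. Strong peaks with a peak of the other factor within 1 kb that were not in a shared site were not compared at equal pileup. Mean Cdx1 length was 275 bp at the shared sites, 260 bp over all strong peaks and 204 bp without a partner. For Cdx2, these means were 272, 256 and 215 bp. Thus, the greater length is not shown to be particular to the shared sites.

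**Figure D4:**
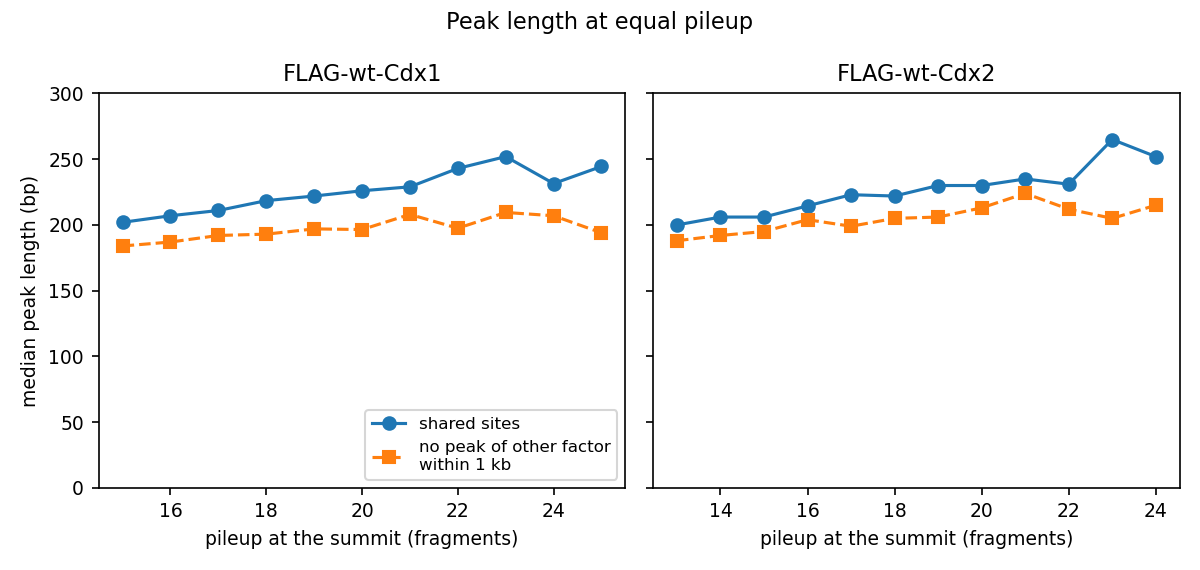
Median peak length (y axis, bp) at equal pileup (x axis, fragments) for the strongly bound shared sites (circles) and for strong peaks with no peak of the other factor within 1 kb (squares), in each library. The shared sites lie above the peaks without a partner at all 11 Cdx1 pileups and all 12 Cdx2 pileups shown.

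Long peaks made up a larger part of the shared sites than of the strong peaks without a partner. The remaining strong peaks, which had a peak of the other factor within 1 kb, were not counted by length. The Cdx1 peak exceeded 500 bp at 369 shared sites (7.62%; 6.91 to 8.40), against 29 of 4574 strong Cdx1 peaks without a partner (0.634%; 0.442 to 0.909). The Cdx2 peak exceeded 500 bp at 339 shared sites (7.00%; 6.32 to 7.75), against 29 of 5472 (0.530%; 0.369 to 0.760). Both peaks exceeded 500 bp at 223 sites, and the lengths of the 2 peaks were related across sites (Spearman's rho = 0.59, n = 4842 sites). The peaks without a partner were chosen by the absence of peaks of the other list within 1 kb. Whether this choice bears on their length was not tested.

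The longest overlap was found on chromosome 2, where the Cdx1 peak covered 1404 bp from position 67440831 to 67442234 and the Cdx2 peak 1422 bp from 67440814 to 67442235. Each library had 22 fragments at its summit, and the summits lay 63 bp apart. On chromosome 16, from 57104479 to 57105795, a Cdx1 peak of 1317 bp with 27 fragments overlapped a Cdx2 peak of 1258 bp with 23 fragments, and the summits lay 20 bp apart. On chromosome 8, at 38627187, peaks of 1202 and 1265 bp had 25 and 21 fragments and summits 55 bp apart. Fold enrichment at these 3 sites was between 6.70 and 8.19 in both libraries, below the medians of all shared sites.

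Around most shared sites no further peak was called. At 3646 sites (75.3%), neither list held another summit from 101 to 1000 bp away, and at 412 sites (8.51%) both lists did. Another Cdx1 summit was present at this distance from 16.2% of the shared sites (15.2 to 17.3), 15.4% of all strong Cdx1 peaks (14.9 to 16), 10.1% of the strong Cdx1 peaks without a partner (9.30 to 11.1) and 13.8% of all Cdx1 peaks. Another Cdx2 summit was present around 17.0% (16 to 18) of the shared sites, 18.3% (17.8 to 18.8) of all strong Cdx2 peaks, 12.7% (11.8 to 13.6) of the strong Cdx2 peaks without a partner and 12.8% of all Cdx2 peaks. Thus, the values of the shared sites lay near those of all strong peaks, which include them, and above those of the peaks without a partner. The latter were chosen for lacking peaks of the other list within 1 kb, so nothing is read from this difference about the shared sites.

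The shared sites were spread over all 22 autosomes. The largest number, 675 (13.9%), lay on chromosome 2, and the smallest, 52, on chromosome 22. Per Mb of the stretch covered by peaks, the number ranged from 1.10 on chromosome 18 to 2.78 on chromosome 2, with a median of 1.61 over the chromosomes. Chromosomes 20 and 19 followed chromosome 2 with 2.51 and 2.49 sites per Mb. The value of chromosome 8, 1.37, is too low, since its stretch of 146 Mb still includes the block left out. The share of the strong Cdx1 peaks that were shared ranged less, from 20.6% (17.8 to 23.7) on chromosome 19 to 32.6% (28.1 to 37.4) on chromosome 17. On chromosome 2 it was 29.6% (27.8 to 31.5), and this chromosome also held the most strong peaks of each list, 2281 (Cdx1) and 2643 (Cdx2). The share of strong Cdx2 peaks, by contrast, was highest on chromosome 19, at 32.4% (28.2 to 36.8), where the list of strong Cdx1 peaks was the longer, with 713 against 454 peaks. Chromosome 19 also had the highest median ratio of scaled pileup, 0.99, and the lowest median was 0.86, on chromosome 21. Median Cdx1 peak length was between 208 bp on chromosome 4 and 329 bp on chromosome 22, where only 52 sites were present.

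**Figure D5:**
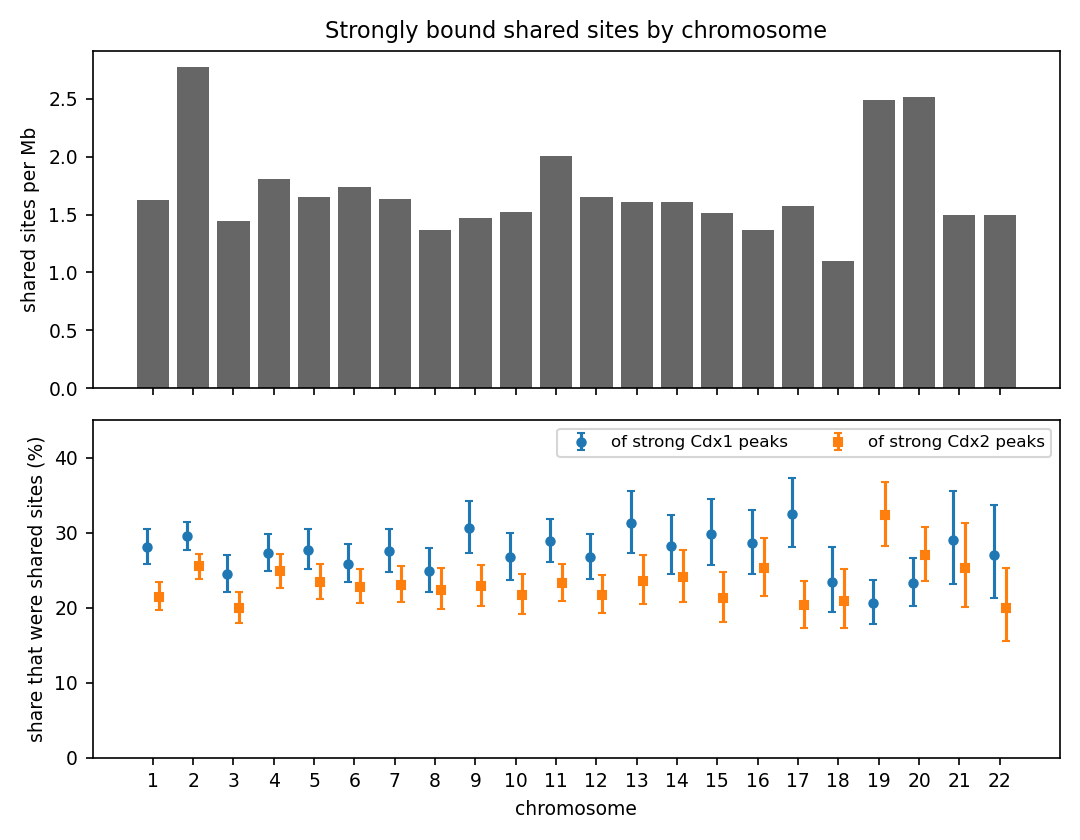
Strongly bound shared sites per Mb (upper panel) and the share of strong FLAG-wt-Cdx1 peaks (circles) and strong FLAG-wt-Cdx2 peaks (squares) that were shared sites (lower panel, %, with 95% Wilson intervals) on each autosome (x axis). Chromosome 2 has the most sites per Mb, 2.78, and on chromosome 19 the share is lowest for Cdx1, 20.6%, and highest for Cdx2, 32.4%. The sites per Mb of chromosome 8 are too low, since its stretch includes the block left out.

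Sites were found in 2002 of 2713 bins of 1 Mb (73.8%), with a median of 1 per bin. Only 16 bins held at least 10 sites, and 13 of them lay on chromosome 2. The 3 bins with most sites were those starting at 38000001 (19 sites), 64000001 (17 sites) and 36000001 (15 sites) of chromosome 2, and a bin of chromosome 11 starting at 1000001 also held 15. In the bin of 19 sites, the site with the highest summed pileup had 27 Cdx1 and 23 Cdx2 fragments and summits at 38312479 and 38312482, but its Cdx2 fold enrichment was 5.61, below that of most shared sites. In the bin of 17 sites it had 25 and 29 fragments and summits at 64176815 and 64176810, and in the bin of 15 sites on chromosome 2 it had 19 and 27 fragments and summits at 36903143 and 36903154. In the bins with at least 10 sites, 43.5% of the strong Cdx1 peaks were shared, against 26.9% in the other bins; these bins were chosen by their number of shared sites.

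The background moved with the number of sites. Over the bins with at least 10 sites, the median background, divided by the genome-wide value, was 1.66 for Cdx1 and 1.78 for Cdx2, against 1.15 and 1.06 over all bins. From 30 to 70 Mb of chromosome 2, a stretch chosen after the data were seen, 316 shared sites were found (7.90 per Mb), with a relative background of 1.58 (Cdx1) and 1.52 (Cdx2). On the rest of chromosome 2, there were 359 sites (1.77 per Mb), with a relative background of 1.13 and 1.04. The stretch of 40 Mb also held 958 strong Cdx1 and 1061 strong Cdx2 peaks, against 1323 and 1582 on the remaining 203 Mb. The strong peaks of each list were thus denser in this stretch as well, and the crowding is not particular to the shared sites. The share of strong Cdx1 peaks that were shared was 33.0% (30.1 to 36.0) in this stretch and 27.1% (24.8 to 29.6) on the rest of the chromosome. The part of the background, which the fragments of the peaks themselves also raise, in these numbers was not tested.

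The median gap between neighboring shared sites was 300598 bp, and no gap was shorter than 326 bp. Gaps between the strong peaks of either list were not computed, so nothing is read from these values about the shared sites. Within the Cdx1 list, no further summit lay 101 to 200 bp from a shared site or from a strong peak without a partner. How far peak calling itself sets this spacing was not tested. Of 4820 gaps, 243 were at most 10 kb and 42 at most 1 kb. Groups of sites with neighbors at most 1 kb apart numbered 41 and held 83 sites (1.71%). The largest group had 3 sites, on chromosome 5, with Cdx1 summits at 92917682, 92918446 and 92919038. Their pileups were 18, 19 and 15 with FLAG-wt-Cdx1 and 27, 18 and 22 with FLAG-wt-Cdx2, and the relative background there was up to 2.54 for Cdx1 and 3.60 for Cdx2. Over all shared sites, the background exceeded 2 times the genome-wide value in both libraries at 712 sites (14.7%) and 4 times at 50 sites (1.03%). With FLAG-wt-Cdx1 alone, it exceeded 2 times at 18.6% of the shared sites, 16.9% of all strong Cdx1 peaks and 16.3% of those without a partner. With FLAG-wt-Cdx2 alone, it did so at 28.8% of the shared sites and 27.1% of the strong Cdx2 peaks without a partner. The shared sites thus lay near the other strong peaks in this respect.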

How the data were processed

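The peak lists of 2 ChIP-seq libraries, 1 per factor, were analyzed, grouped by sample title. Per the file headers, the authors called peaks in each library with MACS 2.0.10.20131216 without a control, at a q-value cutoff of 0.05, with at most 1 tag per position. GRCh37, bcl2fastq 1.8.3, cutadapt 1.1 and Trimmomatic 0.32 are named in the submitters' processing notes, and the aligner is not settled by the sources used here. The deposited signal is the pileup in whole fragments, not scaled to depth. The deposited fold enrichment is the ratio of pileup to local background after adding 1 to both, and significance was deposited as −log10 p and −log10 q. If both mates of a read pair were counted as tags, which is not stated, the intervals would be too narrow.

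Local background was recomputed from pileup and fold enrichment, and its lowest value in a list was taken as genome-wide. Pileups were scaled by kept tags. Shares have 95% Wilson intervals, pileups exact Poisson intervals, and medians intervals from ranks. Named sites were LGR5, the 5 of highest summed scaled pileup, the 3 highest and 3 lowest ratios, the 3 longest overlaps and the 3 densest bins. Members and lists were chosen with earlier results of these data known. Pairing was tested on simulated data. Software was Python (3.11.15) with scipy (1.17.1), pandas (2.3.3), numpy (2.4.6) and matplotlib (3.10.9). No genome or annotation of GRCh37 was used here, so that genes other than LGR5 and motifs are not reported.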

Additional observations from a re-analysis of the deposited data

How the results depend on the processing

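With 1 library per factor, no setting carries a test. The number of shared sites was within 1.5 times of 4842 in 7 of 9 alternatives, and was 2001 with pileups of 18 to 29 (Cdx1) and 15 to 29 (Cdx2), and 184 with only sites at the genome-wide background in both libraries. The median ratio was 1.05 by fold enrichment, which reversed the balance, 0.89 without the upper limit and also with a −log10 q of at least 8, 0.97 at the genome-wide background and also with the limits nearly equal after scaling, and 0.96 when scaled by the genome-wide background. The median summit distance was 16 bp, 22.5 bp and 17.5 bp with summits at most 50 bp apart, at most 200 bp apart and at the genome-wide background. In the same order, the median length was 214, 225 and 202 bp with FLAG-wt-Cdx1 and 216, 227 and 214 bp with FLAG-wt-Cdx2. It was 232 and 233 bp with the raised limits, 225 and 230 bp without the upper limit, and 223 bp for Cdx1 with limits nearly equal after scaling. The shared share of strong Cdx1 peaks was 23.6% with 50 bp, 29.8% with 200 bp, 60.1% with Cdx2 peaks of any pileup, and 32.2% with an overlap of at least 1 bp. The cause of these shifts was not tested beyond what each limit itself sets. The settings with limits nearly equal after scaling and without chromosome 2 were chosen after the data were seen, and leaving out chromosome 2 gave 4167 sites and moved none of the medians of ratio, summit distance and peak length beyond its interval; the shared share was not recomputed there. The alternatives for CDX motifs and annotated TSSs were not run. No paired analysis was possible because each factor had 1 library. The lists hold no pileup below 5 (Cdx1) or 4 (Cdx2) fragments in these regions, which limits what could be matched to a strong peak.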

Other observations

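Pairs that met the limits of pileup and distance outside the regions considered are given here as values. In the chromosome 8 block left out, 28 such pairs were found among 2829 strong Cdx1 peaks (0.990%) and 124 strong Cdx2 peaks (22.6%), with median pileups of 24.5 and 14 fragments. On chromosome X, 25 pairs were found among 87 strong Cdx1 peaks and 166 strong Cdx2 peaks, with median pileups of 18 and 20 fragments.

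Above the upper limit, 538 autosomal pairs had a pileup of at least 30 in both libraries. Their median pileups were 51 and 68 fragments, and the median distance between their summits was 12 bp. The depth-scaled ratio had a median of 0.68, and the median background, divided by that of the whole genome, was 4.07 for Cdx1 and 6.32 for Cdx2.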
